A study of Mus musculus with 12 samples.

Results

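The interferon-stimulated genes of mouse liver, apart from the guanylate-binding proteins (Gbp family) and the MHC genes, were followed through 12 RNA-seq libraries. Members were the entries whose symbol stood on a list of 43 type I and type II interferon-stimulated genes, and each of the 43 matched 1 entry of a table of 24962 entries and 24033 symbols. Of these, 42 passed the filter on low values (a mean level of at least 4) and were tested together with all 12965 genes that passed it. The exception, Tgtp1, was listed at 0 in every library. All mice were wild-type C57BL/6 females, and the 4 groups held 3 libraries each: ovariectomized females given dexamethasone (1 mg/kg), intact females given the same dose, ovariectomized females given PBS as the vehicle, and intact females given PBS. Livers were taken 6 h after treatment. Ovariectomy removes the ovarian source of oestrogen and progesterone, and dexamethasone is a synthetic glucocorticoid. The sources used here give no age, no interval after surgery and no sham operation. They number the replicates without saying that each is a separate animal, so p-values here reflect only how far these 12 libraries scatter, which may be technical. Levels are the authors' normalized values on a log2 scale, on which a difference of 1 is a 2-fold change. Such values keep no read depth, so no counting interval is given, and levels are compared only within a gene because they are not divided by transcript length.

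Interferons bind cell-surface receptors whose JAK kinases phosphorylate STAT proteins. Type I interferons assemble the complex ISGF3, which holds STAT2 and IRF9 and binds the interferon-stimulated response element (ISRE) of target genes, whereas STAT pairs activated by interferon gamma bind the gamma-activated site (GAS). The targets encode the sensors, enzymes and effectors of the antiviral state, together with several of the transcription factors themselves, and both hepatocytes and the resident macrophages of the liver (Kupffer cells) can express them. Glucocorticoids act through the glucocorticoid receptor, encoded by Nr3c1, and are known as inhibitors of inflammatory and interferon signalling.

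Library medians over the tested genes lay between 8.82 and 8.86. All 8 hepatocyte markers examined were in the table and none was listed at 0. Known glucocorticoid-induced genes rose. Fkbp5, a chaperone of steroid receptors, was 2.29 ± 0.22 higher on the log2 scale with dexamethasone in ovariectomized females (SE; limma adjusted p = 2.2e-05) and 1.28 ± 0.22 higher in intact females (adjusted p = 0.000591). Tsc22d3 rose by 1.13 in ovariectomized females and by 0.59 in intact females (limma adjusted p = 0.000189 and 0.00664). Per1, a clock gene, rose by 0.64 in intact females (adjusted p = 0.00627), and its difference of 0.36 in ovariectomized females did not pass (limma adjusted p = 0.091). The receptor gene Nr3c1 differed by -0.03 in ovariectomized females (limma adjusted p = 0.636) and fell by 0.57 in intact females (adjusted p = 1.44e-05).

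One library stood apart for a few members. Replicate 2 of the intact vehicle group had 11.48 for Igtp, against 10.60 and 10.60 in replicates 1 and 3. It had 11.28 for Irgm2, against 10.61 and 10.57, and 9.61 for Zbp1, against 8.67 and 8.96. It was the highest of its group by more than 0.5 for these 3 of 42 members (7.14%), compared with 81 of the 12965 genes tested (0.625%), among them the interferon-stimulated genes Fam26f and Ifi47 and the neutrophil gene S100a8. Comparisons of these members with the intact vehicle group are therefore given with and without that library.

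Promoters of many members hold the letters that interferon-activated factors read, and those of 6 members described in detail below are shown to let a reader see these letters in place. RefSeq promoters (GRCm38.p6, 250 bases before to 50 after the start, 300 bases in all) were matched by symbol for 33 of the 43 members; Mx1, Mx2, Rtp4, Oas2, Iigp1, Zbp1, Parp14, Parp9, Dhx58 and Usp18 had no entry. For the ISRE the search was for GAAA, any 2 bases and GAAA again, on both strands, and these letters stood in 16 of the 33 (48.5%), compared with 3.99% of the 27025 genes that have a promoter of this length. TTCNNNGAA, used for the GAS, reads alike on both strands and stood in 13 of the 33 (39.4%), compared with 9.55% of all genes. ACANNNTGT, the core of the palindromic glucocorticoid response element, stood in 1 of the 33 (3.03%, Oasl1), compared with 7.9% of all genes. Matches of the ISRE letters overlapped each other in Isg15, Oas1a, Oas1g, Bst2 and Irgm1, and a GAS match overlapped an ISRE match in Bst2. A match is a description of the letters and not evidence of binding. The 250 bases before the start follow, 5′ to 3′, with matches to the ISRE or GAS letters in capitals.
Ifit1: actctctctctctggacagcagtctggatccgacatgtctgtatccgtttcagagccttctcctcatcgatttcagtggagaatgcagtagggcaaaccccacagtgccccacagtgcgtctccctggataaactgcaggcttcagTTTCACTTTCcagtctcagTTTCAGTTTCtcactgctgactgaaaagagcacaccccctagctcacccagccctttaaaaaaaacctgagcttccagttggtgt
Rsad2: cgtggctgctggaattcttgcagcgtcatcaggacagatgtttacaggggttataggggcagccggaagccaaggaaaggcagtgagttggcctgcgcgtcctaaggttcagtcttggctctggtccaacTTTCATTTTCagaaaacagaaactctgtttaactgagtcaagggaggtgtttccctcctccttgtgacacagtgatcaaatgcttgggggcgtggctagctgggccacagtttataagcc
Isg15: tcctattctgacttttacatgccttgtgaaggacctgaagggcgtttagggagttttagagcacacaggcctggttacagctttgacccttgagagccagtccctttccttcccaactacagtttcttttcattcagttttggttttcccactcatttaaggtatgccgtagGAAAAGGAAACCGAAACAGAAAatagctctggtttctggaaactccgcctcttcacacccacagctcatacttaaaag
Irgm2: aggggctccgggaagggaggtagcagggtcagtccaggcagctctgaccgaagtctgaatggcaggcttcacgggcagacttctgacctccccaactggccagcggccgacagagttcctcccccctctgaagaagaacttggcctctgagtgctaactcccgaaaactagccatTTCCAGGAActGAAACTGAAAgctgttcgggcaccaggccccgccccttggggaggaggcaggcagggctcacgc
Igtp: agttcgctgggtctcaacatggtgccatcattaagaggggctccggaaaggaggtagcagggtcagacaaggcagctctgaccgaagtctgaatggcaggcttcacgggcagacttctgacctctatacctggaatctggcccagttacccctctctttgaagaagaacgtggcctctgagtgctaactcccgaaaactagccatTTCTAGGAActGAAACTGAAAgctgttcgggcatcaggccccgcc
Stat2: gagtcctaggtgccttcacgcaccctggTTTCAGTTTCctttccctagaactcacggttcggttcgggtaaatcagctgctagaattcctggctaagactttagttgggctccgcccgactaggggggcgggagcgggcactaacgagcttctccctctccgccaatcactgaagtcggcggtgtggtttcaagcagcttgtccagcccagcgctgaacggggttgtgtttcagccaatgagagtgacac

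The Ifit1 window lies at chr19:34640639-34640888, plus strand, that of Rsad2 at chr12:26456453-26456702, minus strand, and that of Isg15 at chr4:156200819-156201068, minus strand. Irgm2 is at chr11:58214727-58214976, plus strand, Igtp at chr11:58199306-58199555, plus strand, and Stat2 at chr10:128270248-128270497, plus strand. Ifit1 and Isg15 carry several ISRE matches close to the start, at -104 to -76 and -78 to -57, and Rsad2 carries 1 at -120 to -111. Irgm2 and Igtp share a GAS match followed by an ISRE match whose first bases are 11 apart, and the same spacing stood in Tgtp1. Counting only ISRE letters read in the direction of the gene, that is 3 of 33 members, beside 5 of all 27025 genes (0.0185%). This distance is the one these members show, so the share of all genes is no test of it. The printed promoters of Irgm2 and Igtp are also much alike in sequence, so they are not separate cases. Stat2 has a single ISRE match, at -222 to -213. Among the 32 tested members with a promoter, the median log2 difference between dexamethasone and vehicle was -0.48 for the 15 with ISRE letters and -0.44 for the 17 without in ovariectomized females, and -0.64 and -0.49 in intact females. For the 12 with GAS letters it was -0.29 and for the 20 without -0.60 in ovariectomized females, and -0.28 and -0.57 in intact females. These medians are descriptions without a test.

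With dexamethasone most members were lower, in ovariectomized and in intact females alike, and the drop was usually under 2-fold. In ovariectomized females 32 of 42 members fell and 2 rose at an adjusted p under 0.05, compared with 19.4% and 21.3% of all genes tested. The same count, 32 of 42, fell in intact females and 3 rose, compared with 25.9% and 22.8% of all genes. The median log2 difference over the 42 members was -0.5 in ovariectomized females and -0.51 in intact females, where the median of all genes was 0 in both. These 2 comparisons share no library, although the fit took each gene's spread from all 12 libraries. In both, 28 of 42 members fell, compared with 10.6% of all genes. The 3 dexamethasone libraries were all below the 3 vehicle libraries for 34 members in ovariectomized females (26.5% of all genes) and for 33 in intact females (28.6%). They were all above for 2 members in ovariectomized females (28.1% of all genes) and for 3 in intact females (26.9%). In bulk liver RNA, fewer cells of a type and less RNA per cell cannot be told apart.

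**Figure D1:**
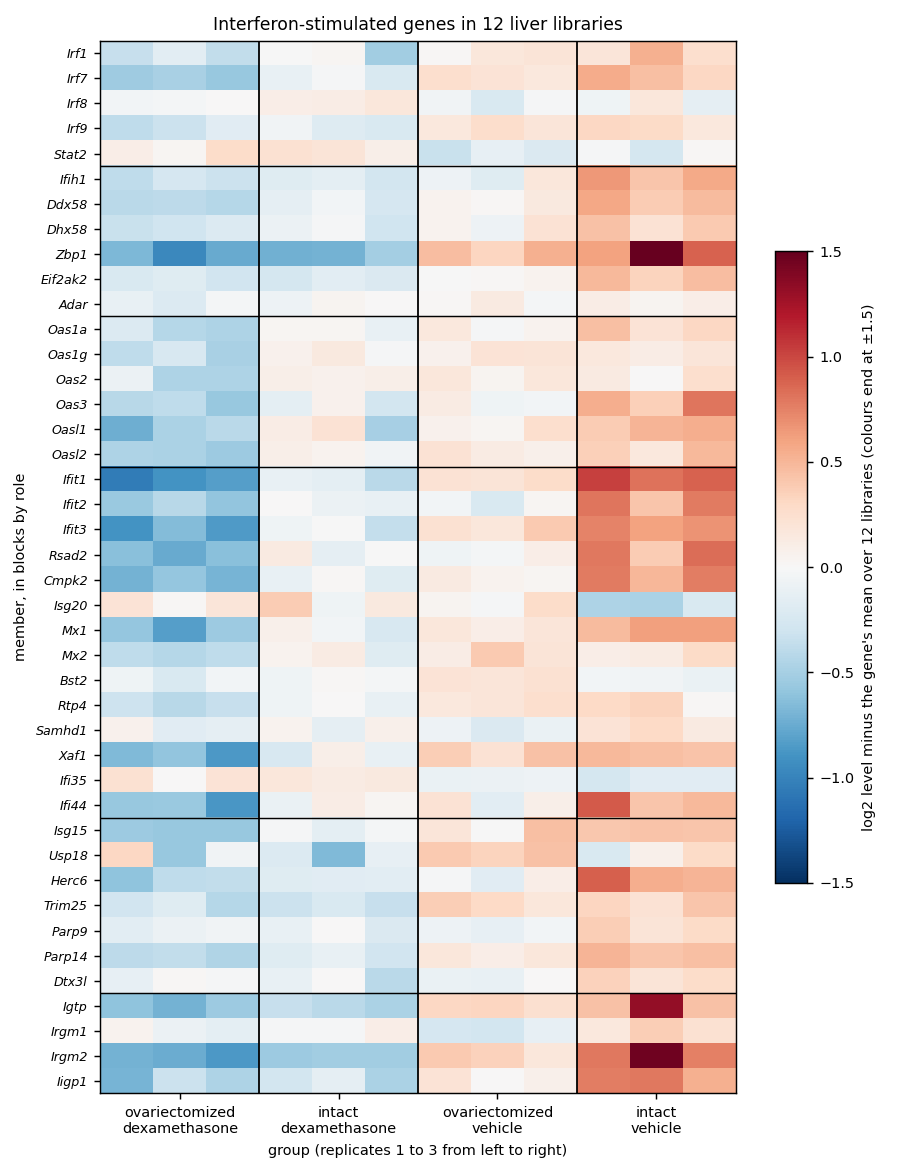
Heatmap of the 42 tested members (rows, in blocks by role) in the 12 libraries (columns, in groups of 3), coloured by the log2 level minus the gene's mean over all libraries, with colours ending at ±1.5. The ovariectomized dexamethasone columns are mostly blue (library medians -0.43 to -0.38) and the intact vehicle columns mostly red (0.36 to 0.43), with the other groups between.

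The members' levels were ordered by group. The median deviation of a library from the members' own means was -0.43 to -0.38 in the ovariectomized dexamethasone libraries, -0.18 to -0.01 in the intact dexamethasone libraries, 0.04 to 0.17 in the ovariectomized vehicle libraries and 0.36 to 0.43 in the intact vehicle libraries. These 4 ranges do not overlap. The group means stood in exactly that order for 29 of 42 members, compared with 8.04% of all genes tested. Within groups the libraries also differed together: among ovariectomized vehicle libraries replicate 3 was the highest for 26 members and replicate 2 the lowest for 26, and among intact dexamethasone libraries replicate 3 was the lowest for 25.

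**Figure D2:**
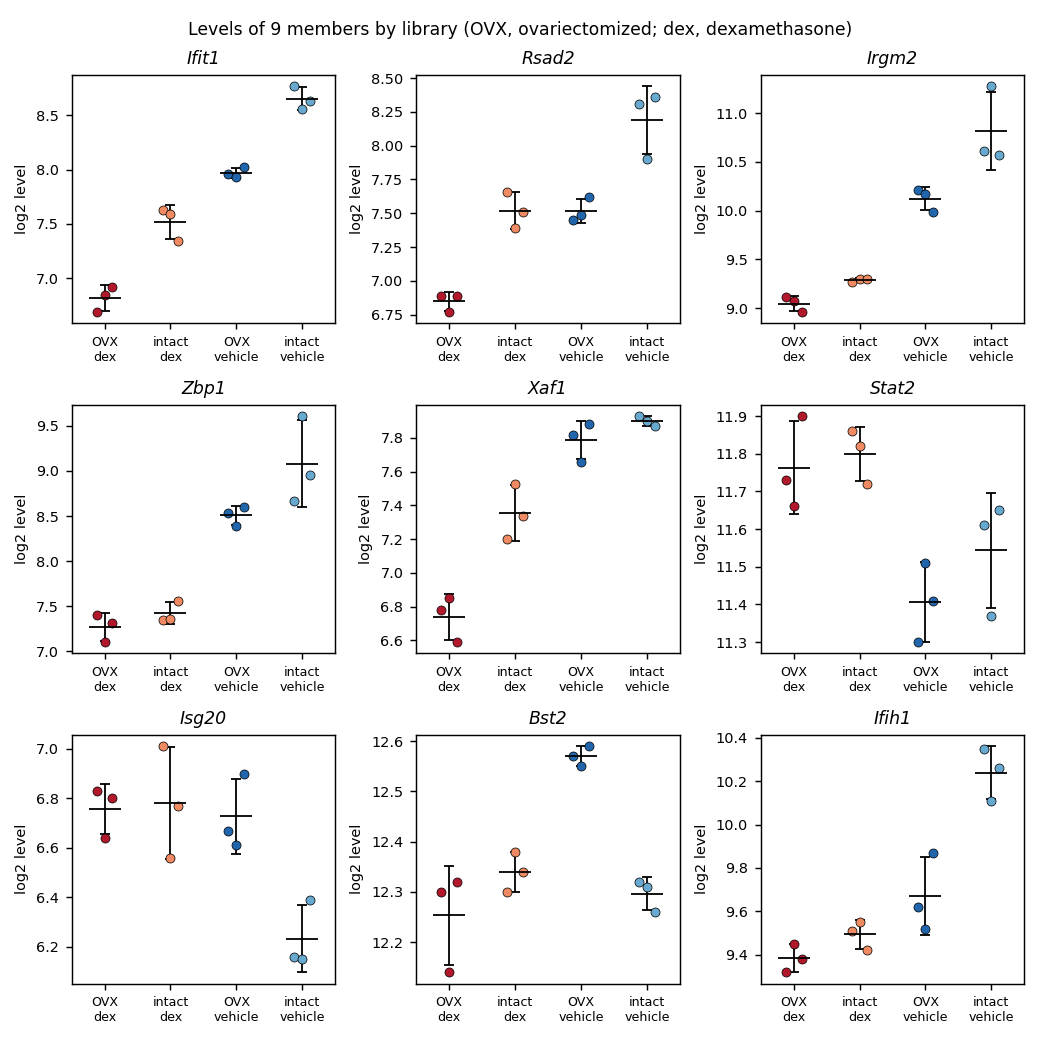
Levels (log2, y axis) of 9 members in each library, by group (x axis); points are libraries, and bars give the mean and SD of 3. Ifit1 has no overlap between any 2 groups, Rsad2 has intact dexamethasone and ovariectomized vehicle at the same mean of 7.52, and Stat2 runs the other way with dexamethasone above vehicle.

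**Figure D3:**
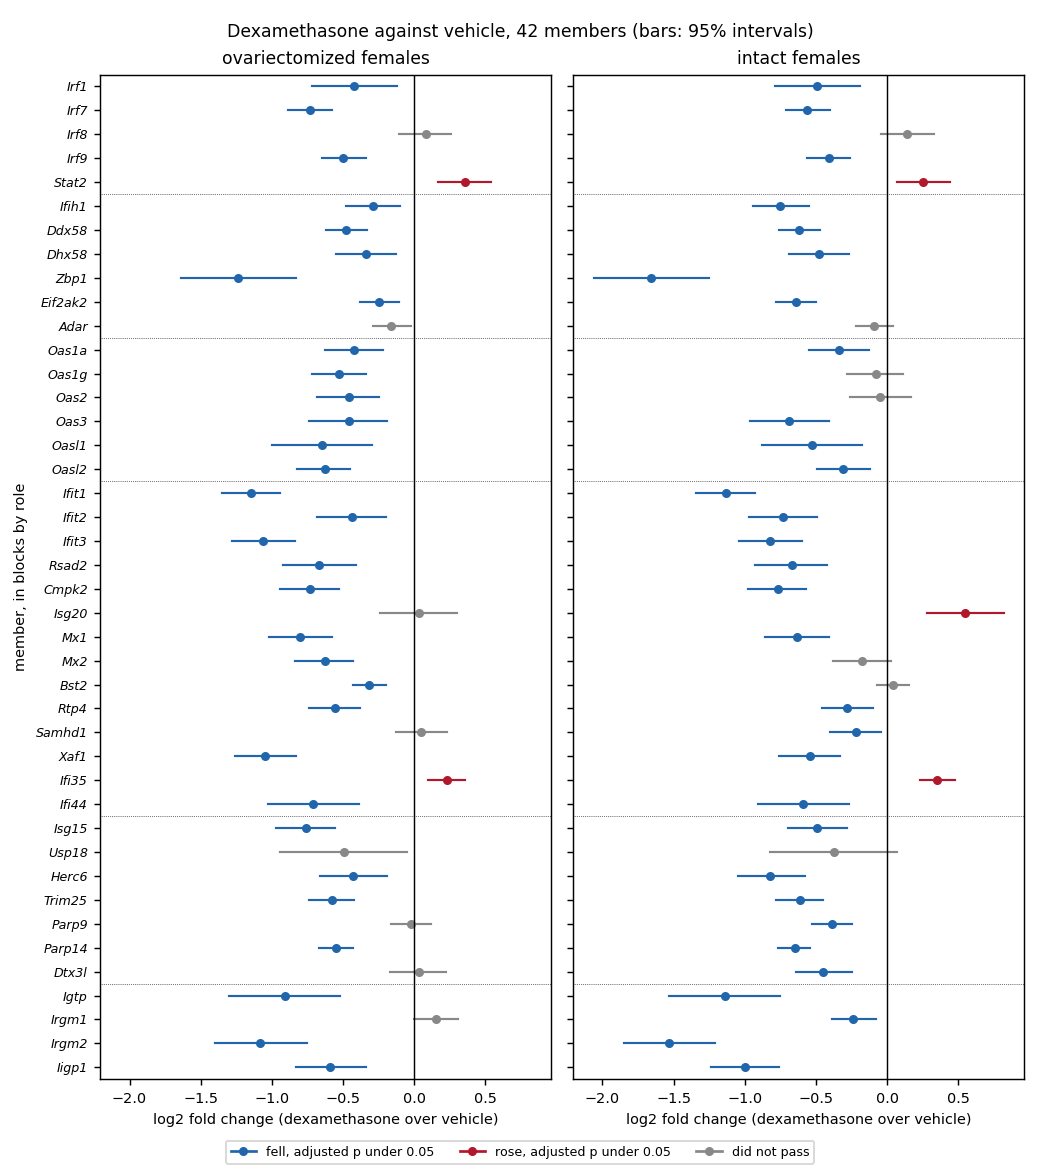
Log2 fold change of dexamethasone over vehicle (x axis) for 42 members (rows, in blocks by role) in ovariectomized (left) and intact (right) females, with 95% intervals; blue fell, red rose, grey did not pass an adjusted p of 0.05. Most points lie left of 0 in both panels, with Zbp1 farthest left (-1.24 in ovariectomized and -1.66 in intact females).

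Among the transcription factors, 3 of 5 fell and 1 rose in each gonadal state. Irf7, which drives interferon gene transcription, had 9.24, 9.29 and 9.20 in ovariectomized dexamethasone libraries and 9.66, 9.76 and 9.55 in intact dexamethasone libraries, against 10.03, 9.98 and 9.93 in ovariectomized vehicle libraries and 10.33, 10.23 and 10.08 in intact vehicle libraries. Every dexamethasone library was below every vehicle library. The log2 fold change was -0.73 ± 0.071 in ovariectomized females (SE; limma adjusted p = 2.52e-05) and -0.56 ± 0.071 in intact females (adjusted p = 0.0001). Irf9, the DNA-binding part of ISGF3, fell by 0.50 and 0.41 in ovariectomized and intact females. Irf1, a factor induced mainly by interferon gamma, fell by 0.42 and 0.49; in ovariectomized females its adjusted p was 0.0727 to 0.0874 without dexamethasone replicate 1 or 3 or without vehicle replicate 2 or 3. Irf8, a factor of myeloid cells, differed by 0.08 and 0.14 and did not pass (limma adjusted p = 0.491 and 0.178), although in intact females it rose by 0.24 without intact vehicle replicate 2 (adjusted p = 0.0237).

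Stat2, a part of ISGF3, was the member of this block that rose. It had 11.73, 11.66 and 11.90 in ovariectomized dexamethasone libraries, against 11.30, 11.51 and 11.41 in ovariectomized vehicle libraries, and 11.86, 11.82 and 11.72 in intact dexamethasone libraries, against 11.61, 11.37 and 11.65 in intact vehicle libraries. The groups do not overlap in either gonadal state, and the rise was 1.28-fold in ovariectomized females (limma adjusted p = 0.00651) and 1.19-fold in intact females (adjusted p = 0.0289). The rise in intact females did not pass without intact vehicle replicate 2 (0.17, limma adjusted p = 0.114), nor without intact dexamethasone replicate 1 (0.22, 0.0943) or 2 (0.24, 0.0674).

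Of the 6 nucleic acid sensors and their kinase, 5 fell in each gonadal state. Zbp1, a sensor of Z-form nucleic acids that can trigger cell death, fell the most of all members. Its level was 7.40, 7.10 and 7.31 in ovariectomized dexamethasone libraries, against 8.53, 8.39 and 8.60 in ovariectomized vehicle libraries. In intact females it was 7.35, 7.36 and 7.56 with dexamethasone, against 8.67, 9.61 and 8.96 with vehicle. The groups do not overlap in either gonadal state, and the level was 2.36-fold lower with dexamethasone in ovariectomized females (limma adjusted p = 0.000388) and 3.15-fold lower in intact females (adjusted p = 4.03e-05). Without intact vehicle replicate 2 the log2 fold change in intact females was -1.39, in place of -1.66.

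The RNA helicases Ddx58 (RIG-I), Ifih1 (MDA5) and Dhx58 (LGP2) detect viral RNA in the cytoplasm. Ddx58 fell by 0.48 in ovariectomized and 0.62 in intact females (limma adjusted p = 0.000279 and 3.54e-05), with levels of 9.03 to 9.42 in the 6 dexamethasone libraries and 9.48 to 10.04 in the 6 vehicle libraries. Ifih1 fell by 0.29 and 0.75, and Dhx58 by 0.34 and 0.48. In ovariectomized females the adjusted p of Ifih1 was 0.0698 without dexamethasone replicate 1, 0.0537 without dexamethasone replicate 3 and 0.0803 without vehicle replicate 3, and that of Dhx58 was 0.0508 without dexamethasone replicate 1 and 0.0644 without vehicle replicate 3. Eif2ak2, the RNA-activated kinase PKR that blocks translation, fell by 0.25 and 0.64. Adar, which edits double-stranded RNA, had -0.16 and -0.09 and did not pass (limma adjusted p = 0.0587 and 0.234), with levels of 9.54 to 9.78 with dexamethasone and 9.72 to 9.88 with vehicle; recentring the libraries on one median gave -0.18 in ovariectomized females (limma adjusted p = 0.0265), and leaving out ovariectomized dexamethasone replicate 3 gave -0.20 (0.0382).

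Genes of the oligoadenylate synthetase family fell in 6 of 6 cases in ovariectomized females and in 4 of 6 in intact females. Products of its active enzymes switch on the nuclease RNase L. Oas1g had 5.10, 5.24 and 5.0 in ovariectomized dexamethasone libraries and 5.55, 5.63 and 5.47 in intact dexamethasone libraries, against 5.55, 5.69 and 5.68 in ovariectomized vehicle libraries and 5.64, 5.60 and 5.67 in intact vehicle libraries. The ovariectomized dexamethasone libraries are low and the other 3 groups lie together. Oas2 followed the same course, with 8.36, 7.99 and 7.99 in ovariectomized dexamethasone libraries, against 8.46 to 8.70 in the other 9 libraries. Their log2 fold changes were -0.53 and -0.46 in ovariectomized females (limma adjusted p = 0.00075 and 0.00329) and -0.08 and -0.05 in intact females, where neither passed (adjusted p = 0.457 and 0.704).

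Oas3 and the synthetase-like genes Oasl1 and Oasl2 did fall in intact females, by 0.69, 0.53 and 0.31, and in ovariectomized females by 0.46, 0.65 and 0.63. Over the 12 libraries Oas3 ran from 5.32 to 6.69, Oasl1 from 6.81 to 8.08 and Oasl2 from 7.18 to 8.21. Oas1a, between 6.02 and 6.93, fell by 0.42 and 0.34. In intact females the calls of Oasl1 (limma adjusted p = 0.0505) and Oasl2 (0.051) were lost without intact vehicle replicate 3 and that of Oas1a (0.0505) without intact vehicle replicate 1. In ovariectomized females that of Oas3 was lost without dexamethasone replicate 3 (0.0502) or vehicle replicate 1 (0.054). Oas1a and Oas1g share 57.6% and 45.7% of their 50-base words with other genes, chiefly each other, so the division of reads between them is uncertain.

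The IFIT proteins and other antiviral effectors fell in 11 of 14 cases and rose in 1 in ovariectomized females, and fell in 10 and rose in 2 in intact females. Ifit1, whose protein binds viral RNA that lacks a methylated cap, had 6.69, 6.85 and 6.92 in ovariectomized dexamethasone libraries and 7.63, 7.59 and 7.34 in intact dexamethasone libraries, against 7.96, 7.93 and 8.02 in ovariectomized vehicle libraries and 8.77, 8.56 and 8.63 in intact vehicle libraries. No library of one group reached the range of another. The level was 2.21-fold lower with dexamethasone in ovariectomized females (log2 -1.15 ± 0.093 SE; limma adjusted p = 7.64e-06) and 2.2-fold lower in intact females (log2 -1.13 ± 0.093; adjusted p = 6.44e-06). Its neighbours Ifit2 and Ifit3 fell by 0.44 and 1.06 in ovariectomized and by 0.73 and 0.82 in intact females. Ifit3 shares 51.2% of its 50-base words with its copy Ifit3b, and its value may include reads of that copy.

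Rsad2 (viperin), an enzyme that makes a chain-terminating nucleotide, and Cmpk2, the nucleotide kinase gene beside it, fell together. Rsad2 had 6.89, 6.77 and 6.89 in ovariectomized dexamethasone libraries, against 7.45, 7.49 and 7.62 in ovariectomized vehicle libraries, and 7.66, 7.39 and 7.51 in intact dexamethasone libraries, against 8.31, 7.90 and 8.36 in intact vehicle libraries. Its log2 fold change was -0.67 ± 0.12 in both gonadal states (SE; limma adjusted p = 0.000997 in ovariectomized and 0.000683 in intact females). Cmpk2 fell by 0.73 and 0.77.

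Xaf1, whose protein antagonizes the apoptosis inhibitor XIAP, had 6.78, 6.85 and 6.59 in ovariectomized dexamethasone libraries and 7.20, 7.53 and 7.34 in intact dexamethasone libraries, against 7.82, 7.66 and 7.88 in ovariectomized vehicle libraries and 7.93, 7.90 and 7.87 in intact vehicle libraries. The vehicle groups lie together and the dexamethasone groups apart, with log2 fold changes of -1.05 ± 0.098 in ovariectomized and -0.54 ± 0.098 in intact females (SE; limma adjusted p = 2.06e-05 and 0.000886). The dynamin-like GTPases Mx1 and Mx2 fell by 0.80 and 0.63 in ovariectomized females. In intact females Mx1 fell by 0.63, and Mx2 had -0.18 and did not pass (limma adjusted p = 0.149). Ifi44 fell by 0.71 and 0.59 in ovariectomized and intact females, and ran from 5.81 to 7.61 over all libraries. Rtp4, between 7.95 and 8.70, fell by 0.56 and 0.28; its adjusted p in intact females was 0.0611 without intact vehicle replicate 1 and 0.059 without replicate 2.

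Isg20, Ifi35, Bst2 and Samhd1 rose, or did not pass, in at least 1 gonadal state. Isg20, an exonuclease of single-stranded RNA, had 7.01, 6.56 and 6.77 in intact dexamethasone libraries, against 6.16, 6.15 and 6.39 in intact vehicle libraries, a rise of 0.55 ± 0.12 (SE; limma adjusted p = 0.00344). In ovariectomized females it had 6.83, 6.64 and 6.80 with dexamethasone, against 6.67, 6.61 and 6.90 with vehicle, and these groups overlap. Ifi35 rose by 0.23 and 0.35 in ovariectomized and intact females (limma adjusted p = 0.00819 and 0.000496), with all 6 dexamethasone libraries (10.08 to 10.30) above all 6 vehicle libraries (means of 9.99 in ovariectomized and 9.87 in intact females). Bst2 (tetherin), which holds budding virions at the cell surface, had 12.30, 12.14 and 12.32 in ovariectomized dexamethasone libraries, against 12.57, 12.55 and 12.59 in ovariectomized vehicle libraries, a fall of 0.32 (limma adjusted p = 0.000695). In intact females Bst2 differed by 0.04 and did not pass (limma adjusted p = 0.531); quantile normalization gave 0.15 (adjusted p = 0.0276) and removal of trends on transcript length and GC content gave -0.17 (adjusted p = 0.0217). Samhd1, which depletes nucleotides, ran from 9.51 to 10.03, differed by 0.05 in ovariectomized females (limma adjusted p = 0.654) and fell by 0.22 in intact females (adjusted p = 0.0407). That fall did not pass without intact dexamethasone replicate 1 (0.0572) or 2 (0.153), intact vehicle replicate 1 (0.0822) or 2 (0.129), or ovariectomized vehicle replicate 1 (0.0509) or 3 (0.0508).

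Of the 7 genes of the ISG15 system and the PARP ligase complex, 4 fell in ovariectomized and 6 in intact females. Isg15, a ubiquitin-like modifier, had 7.48, 7.45 and 7.45 in ovariectomized dexamethasone libraries and 8.0, 7.87 and 7.99 in intact dexamethasone libraries, against 8.20, 8.01 and 8.47 in ovariectomized vehicle libraries and 8.43, 8.45 and 8.44 in intact vehicle libraries. Dexamethasone and vehicle do not overlap within either gonadal state, and the fall was 0.76 ± 0.095 in ovariectomized and 0.49 ± 0.095 in intact females (SE; limma adjusted p = 0.000129 and 0.00131). Herc6, the main ISG15 ligase in mice, ran from 7.79 to 9.29 and fell by 0.43 and 0.82. Trim25, a ubiquitin ligase that acts on RIG-I, ran from 11 to 11.84 and fell by 0.58 and 0.61, and Parp14, an ADP-ribosyltransferase, ran from 9.42 to 10.38 and fell by 0.55 and 0.65.

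Usp18, which removes ISG15 and restrains the type I interferon receptor, did not pass. Its level was 10.13, 9.25 and 9.76 in ovariectomized dexamethasone libraries and 9.61, 9.16 and 9.70 in intact dexamethasone libraries, against 10.21, 10.15 and 10.26 in ovariectomized vehicle libraries and 9.59, 9.89 and 10.11 in intact vehicle libraries. The spread within groups reached an SD of 0.445 (ovariectomized dexamethasone), and the log2 differences were -0.49 and -0.37 (limma adjusted p = 0.0718 and 0.15); without ovariectomized dexamethasone replicate 1 it fell by 0.70 (adjusted p = 0.0168). Parp9 and Dtx3l, which encode partners in one complex, fell in intact females by 0.39 and 0.45. In ovariectomized females they had -0.02 and 0.03 and did not pass (limma adjusted p = 0.82 and 0.842). Parp9 ran from 10.32 to 10.90 and Dtx3l from 10.16 to 10.91 over all libraries.

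The immunity-related GTPases act on vacuoles that hold intracellular pathogens, with Irgm1, Irgm2 and Igtp (Irgm3) as regulators and Iigp1 (Irga6) and Tgtp1 (Irgb6) as effectors. Of the 4 tested, 3 fell in ovariectomized and 4 in intact females. Irgm2 had 9.11, 9.07 and 8.96 in ovariectomized dexamethasone libraries, against 10.21, 10.17 and 9.99 in ovariectomized vehicle libraries, and 9.27, 9.30 and 9.30 in intact dexamethasone libraries, against 10.61, 11.28 and 10.57 in intact vehicle libraries. It was 2.11-fold lower with dexamethasone in ovariectomized females (log2 -1.08; limma adjusted p = 0.000231) and 2.89-fold lower in intact females (log2 -1.53; adjusted p = 1.59e-05). Igtp, which shares the GAS and ISRE spacing shown above, had 9.56, 9.45 and 9.62 in ovariectomized dexamethasone libraries, against 10.47, 10.48 and 10.40 in ovariectomized vehicle libraries, and 9.82, 9.75 and 9.69 in intact dexamethasone libraries, against 10.60, 11.48 and 10.60 in intact vehicle libraries. Its log2 fold change was -0.91 in ovariectomized and -1.14 in intact females (limma adjusted p = 0.00203 and 0.000352). Without intact vehicle replicate 2 the value in intact females was -1.30 for Irgm2 and -0.85 for Igtp.

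Iigp1 had 12.02, 12.40 and 12.25 in ovariectomized dexamethasone libraries, against 12.92, 12.72 and 12.79 in ovariectomized vehicle libraries, and 12.44, 12.58 and 12.24 in intact dexamethasone libraries, against 13.48, 13.51 and 13.25 in intact vehicle libraries. It fell by 0.59 and 1.00 in ovariectomized and intact females, and no group overlaps its vehicle group. Irgm1, between 10.34 and 10.99, differed by 0.15 in ovariectomized females and did not pass (limma adjusted p = 0.102). It fell by 0.24 in intact females (limma adjusted p = 0.0167), but not without intact vehicle replicate 2 (-0.18, 0.066) or intact dexamethasone replicate 1 (-0.22, 0.0587) or 2 (-0.22, 0.0502). Tgtp1 was listed at 0 throughout and shares 81.2% of its 50-base words with other genes, chiefly Tgtp2. Tgtp2, which is no member, fell by 0.41 in ovariectomized and 0.74 in intact females (limma adjusted p = 0.0139 and 0.000319), with levels of 4.88 to 5.20 with dexamethasone and 5.24 to 6.08 with vehicle.

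Falls of at least 2-fold were few. In ovariectomized females they were Zbp1, Ifit1, Irgm2, Ifit3 and Xaf1, 5 of 42, compared with 1.23% of all genes, and in intact females Zbp1, Irgm2, Igtp and Ifit1, 4 of 42, compared with 1.37%. Iigp1 in intact females fell just short of 2-fold before rounding. It was added, for a count of 5, without intact dexamethasone replicate 1 or 2 or intact vehicle replicate 3. Without intact vehicle replicate 2, Igtp (-0.85) was no longer among them and the count in intact females was 3, and without ovariectomized vehicle replicate 3 the count in ovariectomized females was 3. No member rose by that much, compared with 1.54% and 1.04% of all genes. Of the calls made with dexamethasone, 30 of 34 in ovariectomized and 28 of 35 in intact females were kept under each of the alternatives tried.

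Some markers of other liver cell types moved too, and their part in the results was not tested. Their counts stand beside shares of all genes tested of 19.4% fallen and 21.3% risen with dexamethasone in ovariectomized females. In intact females those shares were 25.9% and 22.8%, and several of the marker counts, such as the endothelial ones in ovariectomized females, are near them. The summed level of 16 Kupffer cell and macrophage markers was 13.69 to 14.04 in ovariectomized dexamethasone and 14.13 to 14.24 in intact dexamethasone libraries, against 13.90 to 14.14 in ovariectomized vehicle and 14.33 to 14.39 in intact vehicle libraries (log2 of summed values). With dexamethasone 8 of 16 fell and 1 rose in ovariectomized females, and 6 fell in intact females; Clec4f, which defines Kupffer cells, did not pass in either (-0.06 and 0.06). Of 6 tested B cell markers all fell in both, the summed level of the 8 measured being 7.78 to 7.82 and 7.95 to 8.04 with dexamethasone, against 8.41 to 8.72 and 8.43 to 8.85 with vehicle. Of 9 tested T and NK cell markers none passed by limma (at an unadjusted p under 0.05, 0 in ovariectomized and 1 in intact females), and of 3 neutrophil markers all fell in ovariectomized females and none passed in intact females. Plasmacytoid dendritic cells, a main source of type I interferon, had 5 markers in the table, and Ly6d was the one that passed the filter on low values. Ly6d fell by 0.72 with dexamethasone in ovariectomized females and had -0.26 in intact females, where it did not pass. The summed level of the 5 was 5.97 to 6.13 and 6.06 to 6.13 with dexamethasone, against 6.32 to 6.61 and 6.07 to 6.25 with vehicle. No marker of these 5 cell types was listed at 0. Of 11 sinusoidal endothelial markers 2 fell and 2 rose in ovariectomized females, and 1 fell and 4 rose in intact females. Of 10 stellate cell and fibroblast markers 1 rose in ovariectomized and 6 in intact females. Of 6 cholangiocyte markers 3 fell in ovariectomized females, and 1 fell and 1 rose in intact females.

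Ovariectomy was also accompanied by lower levels. Under dexamethasone 18 of 42 members were lower in ovariectomized than in intact females and none was higher by limma, also at an unadjusted p under 0.05, compared with 5.08% and 7.74% of all genes tested. Under vehicle 22 of 42 fell and 2 rose, compared with 15.5% and 12.4%. Medians over the members were -0.23 and -0.33, against 0.02 and -0.01 for all genes. The 3 ovariectomized libraries were all below the 3 intact ones for 23 members under dexamethasone (14.6% of all genes) and for 25 under vehicle (24.4%). They were all above for 0 members under dexamethasone (19.5% of all genes) and for 4 under vehicle (20.7%). These 2 comparisons share no library, although the fit took each gene's spread from all 12 libraries. In both, 10 of 42 members fell, compared with 0.787% of all genes. Each ovariectomy comparison does share a group with each dexamethasone comparison, so falls with ovariectomy and falls with dexamethasone are not separate results. For all genes under dexamethasone the split between 1004 rises and 658 falls was 728 against 782 after recentring, which left the members' 18 falls at 18. No member differed by 2-fold in either comparison, compared with 0.185% lower and 0.123% higher under dexamethasone and 0.177% and 0.332% under vehicle.

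**Figure D4:**
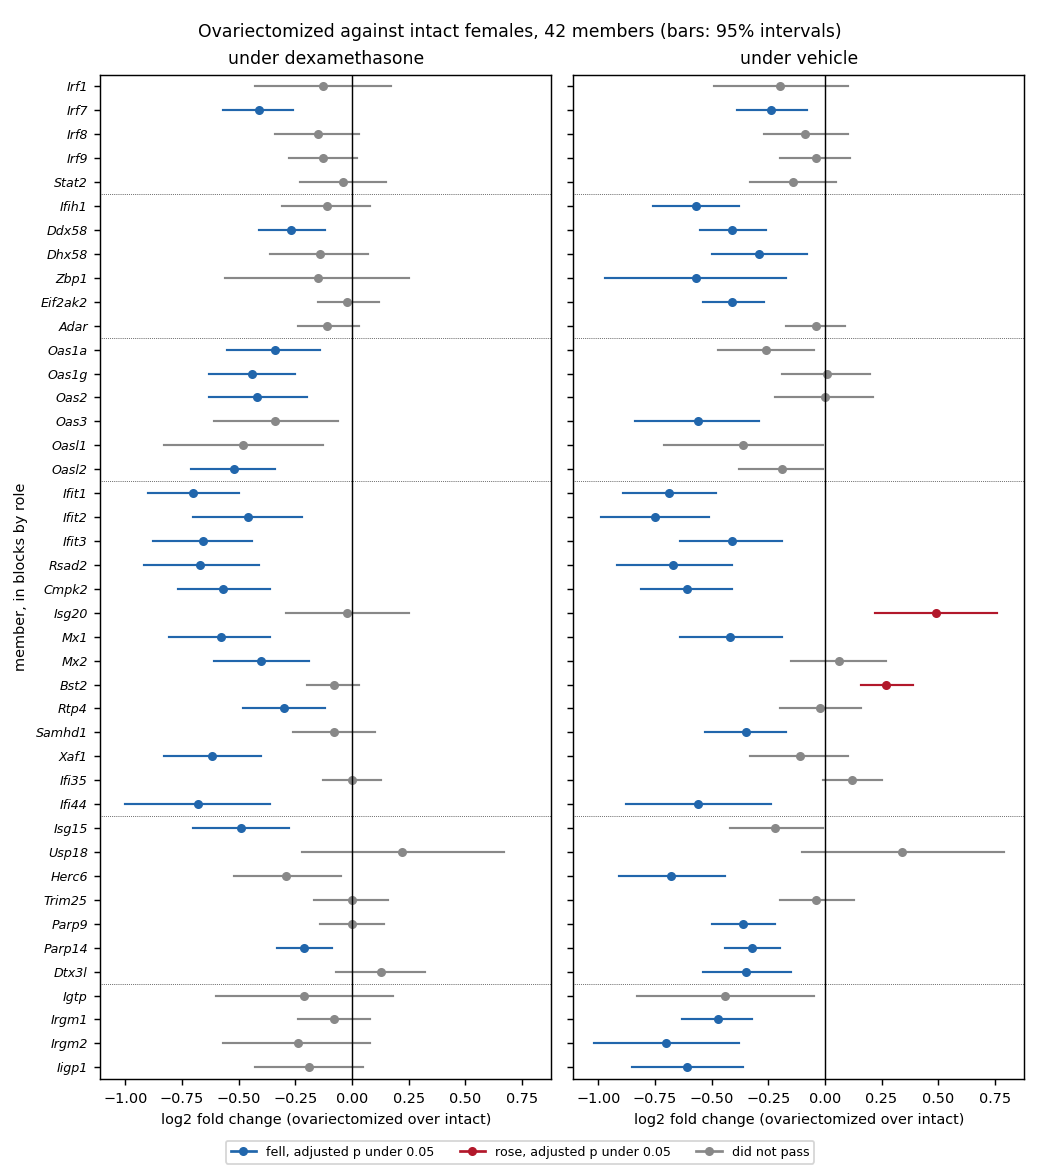
Log2 fold change of ovariectomized over intact females (x axis) for 42 members (rows, in blocks by role) under dexamethasone (left) and vehicle (right), with 95% intervals; blue fell, red rose, grey did not pass an adjusted p of 0.05. Ifit1 lies at -0.70 and -0.69 and Rsad2 at -0.67 in both panels, whereas Isg20 (0.49) and Bst2 (0.27) lie right of 0 under vehicle.

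The members that fell in both were Irf7, Ddx58, Ifit1, Ifit2, Ifit3, Rsad2, Cmpk2, Mx1, Ifi44 and Parp14. Ifit1 was 1.62-fold lower under dexamethasone and 1.61-fold lower under vehicle in ovariectomized females (limma adjusted p = 0.00349 and 0.000646). Rsad2 had a log2 fold change of -0.67 ± 0.12 in both (SE; limma adjusted p = 0.00855 and 0.00223), and the values were -0.46 and -0.75 for Ifit2, -0.66 and -0.41 for Ifit3, and -0.57 and -0.61 for Cmpk2. Mx1 fell by 0.58 and 0.42, Ifi44 by 0.68 and 0.56, Irf7 by 0.41 and 0.24, Ddx58 by 0.27 and 0.41, and Parp14 by 0.21 and 0.32. All 3 tested Ifit genes and the neighbours Rsad2 and Cmpk2 are in this set.

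Under dexamethasone 8 further members fell: Oasl2 (-0.52), Oas1g (-0.44), Oas2 (-0.42), Oas1a (-0.34), Xaf1 (-0.62), Isg15 (-0.49), Mx2 (-0.40) and Rtp4 (-0.30). Among the values that did not pass there were -0.15 for Zbp1, -0.11 for Ifih1, -0.02 for Eif2ak2, -0.24 for Irgm2, -0.21 for Igtp and -0.19 for Iigp1. The call was kept under every alternative for Irf7, Oasl2, Ifit1, Ifit3, Rsad2, Cmpk2, Mx1 and Xaf1, 8 of 18. The count of 18 was 8 without ovariectomized dexamethasone replicate 3 and 9 without intact dexamethasone replicate 1. Without the first of these libraries the adjusted p was 0.0544 for Isg15, 0.0688 for Oas1g, 0.0778 for Ifi44, 0.0821 for Mx2, 0.0953 for Ifit2, 0.097 for Oas2, 0.1 for Ddx58, 0.101 for Rtp4, 0.11 for Parp14 and 0.137 for Oas1a. Without the second it was 0.0536 for Oas1g, 0.0538 for Isg15, 0.0751 for Oas2, 0.0854 for Ifit2 and Mx2, 0.0864 for Ddx58, 0.092 for Parp14, 0.0959 for Rtp4 and 0.113 for Oas1a.

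Other libraries ended some of these calls. Leaving out ovariectomized dexamethasone replicate 1 gave an adjusted p of 0.0528 for Mx2, 0.0602 for Rtp4, 0.0603 for Ifit2 and Parp14, and 0.0637 for Ddx58, and leaving out replicate 2 gave 0.0548 for Ddx58, 0.0581 for Mx2, 0.065 for Oas2, 0.0905 for Rtp4 and 0.092 for Oas1a. Leaving out intact dexamethasone replicate 2 gave 0.0623 for Mx2, 0.0746 for Ddx58, 0.077 for Parp14, 0.0834 for Oas1a and 0.0849 for Rtp4. For Oas1a the p was also 0.0503 without ovariectomized vehicle replicate 1 and 0.0529 without intact vehicle replicate 3, and for Rtp4 0.0522 without ovariectomized vehicle replicate 1. In all of these the direction was kept.

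Under vehicle 12 further members fell. Ifih1 had 9.62, 9.52 and 9.87 in ovariectomized vehicle libraries, against 10.35, 10.11 and 10.26 in intact vehicle libraries, a fall of 0.57 ± 0.088 with no overlap (SE; limma adjusted p = 0.00121). Eif2ak2 fell by 0.41, Oas3 by 0.56, Samhd1 by 0.35, Herc6 by 0.68, Parp9 by 0.36, Dtx3l by 0.35, Irgm1 by 0.47 and Iigp1 by 0.61. Irgm2 fell by 0.70 (limma adjusted p = 0.00558) and, without intact vehicle replicate 2, by 0.47 (adjusted p = 0.00139). Igtp had -0.44 and did not pass (limma adjusted p = 0.0838), and without intact vehicle replicate 2 it had -0.15 (0.0913). Zbp1 fell by 0.57 (limma adjusted p = 0.0387), and by 0.31 without intact vehicle replicate 2 (adjusted p = 0.0773); its p was 0.0514 to 0.109 without ovariectomized dexamethasone replicate 3, intact dexamethasone replicate 1, intact vehicle replicate 3 or any 1 ovariectomized vehicle library. Dhx58 fell by 0.29 (limma adjusted p = 0.044), and its p was 0.0528 to 0.15 without any 1 ovariectomized dexamethasone library, intact dexamethasone replicate 1, ovariectomized vehicle replicate 1 or 2, or intact vehicle replicate 1 or 3.

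Isg20 and Bst2 were higher in ovariectomized females under vehicle. Isg20 had 6.67, 6.61 and 6.90 in ovariectomized vehicle libraries, against 6.16, 6.15 and 6.39 in intact vehicle libraries (0.49 ± 0.12 SE; limma adjusted p = 0.013). Bst2 had 12.57, 12.55 and 12.59, against 12.32, 12.31 and 12.26 in intact vehicle libraries (0.27 ± 0.052; limma adjusted p = 0.00335). With trends on transcript length and GC content removed, neither passed (Isg20 0.27, limma adjusted p = 0.145; Bst2 0.039, adjusted p = 0.641). Isg20 also missed the threshold without ovariectomized vehicle replicate 3 (0.0518) or intact vehicle replicate 1 (0.0506). Among the falls under vehicle, Irf7 missed it without intact vehicle replicate 1 or 2 (0.121 and 0.0603) or ovariectomized vehicle replicate 2 or 3 (0.0693 and 0.0924), Ifi44 without ovariectomized vehicle replicate 2 (0.0609) or intact vehicle replicate 1 (0.0635), and Dtx3l without intact vehicle replicate 1 (0.0609). Dtx3l and Parp14 also missed it with length and GC trends removed (0.154 and 0.0897).

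Kupffer cell markers also differed with ovariectomy: 7 of 16 fell under dexamethasone and 9 of 16 under vehicle, with none higher at an adjusted or unadjusted p under 0.05. Of all genes tested 5.08% fell and 7.74% rose under dexamethasone, and 15.5% and 12.4% under vehicle. Falls of at least 2-fold made up 0.185% under dexamethasone. Clec4f fell by 0.35 and 0.24 (limma adjusted p = 0.0191 and 0.039). The summed marker level, given above, was lower in every ovariectomized library than in every intact library within each treatment. Of 6 tested B cell markers none passed under dexamethasone and 1 fell under vehicle. Of 10 stellate cell and fibroblast markers 4 fell under dexamethasone, 2 of them by at least 2-fold, and 1 rose under vehicle. The part of these markers in the members' differences was not tested.

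The dexamethasone response itself differed between ovariectomized and intact females for 11 of 42 members. It was more negative in ovariectomized females for 6, compared with 9.65% of all genes tested, and more positive for 5, compared with 15.3%, so the members' shares are near those of all genes. The 6 were Isg20 (difference -0.52), Xaf1 (-0.50), Mx2 (-0.46), Oas1g (-0.45), Oas2 (-0.41) and Bst2 (-0.36). The 5 were Dtx3l (0.47), Ifih1 (0.46), Eif2ak2 (0.39), Irgm1 (0.39) and Parp9 (0.37). For Rsad2 the difference was 0.00, with a 95% interval of -0.36 to 0.36, and for Ifit1 -0.01, with -0.30 to 0.27. The median difference over the 42 members was 0, beside 0.01 for all genes. None of the differences reached 2-fold, compared with 0.409% more negative and 0.864% more positive among all genes.

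**Figure D5:**
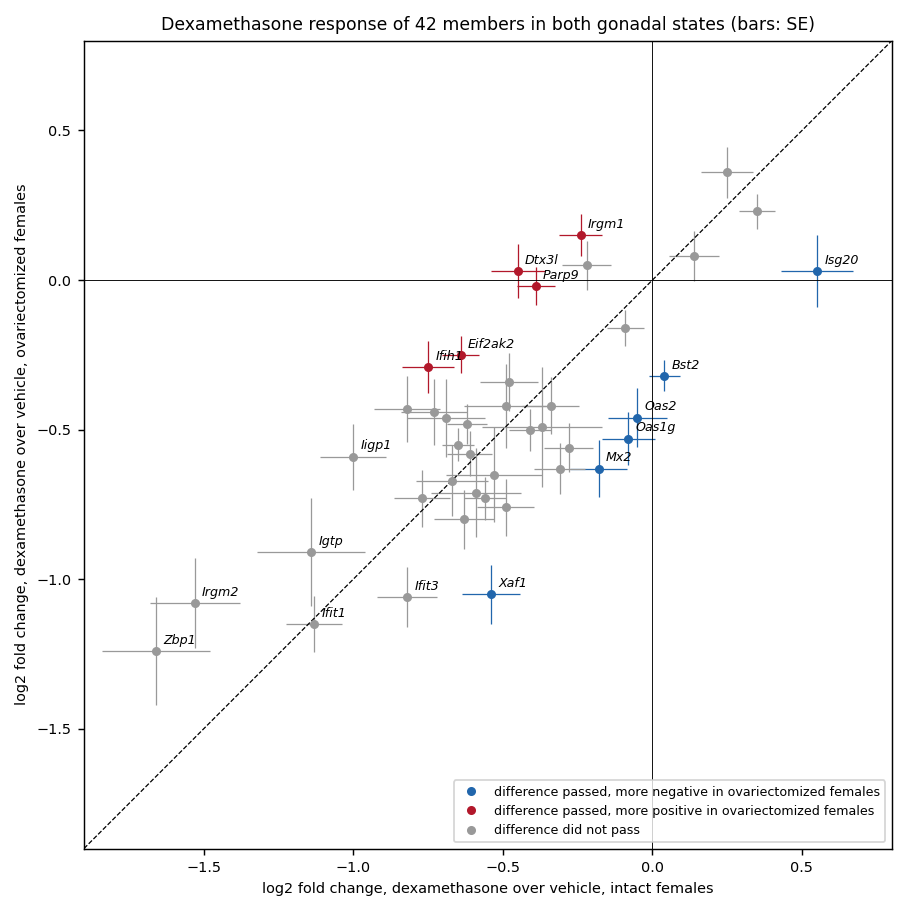
Log2 fold change of dexamethasone over vehicle in ovariectomized females (y axis) and intact females (x axis) for 42 members, with SE bars; the dashed line marks equal responses. Most members lie in the lower left, and the coloured points are the 11 whose difference passed: 6 below the line (blue) and 5 above it (red).

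Most members of every block did not pass the test of this difference. Ifih1 had 9.32, 9.45 and 9.38 in ovariectomized dexamethasone libraries and 9.51, 9.55 and 9.42 in intact dexamethasone libraries, against 9.62, 9.52 and 9.87 in ovariectomized vehicle libraries and 10.35, 10.11 and 10.26 in intact vehicle libraries, so that the intact vehicle group stands alone. The difference in response was 0.39 ± 0.088 for Eif2ak2 (SE; limma adjusted p = 0.00877), the member whose call was kept under every alternative tried. For the other 10, at least 1 alternative gave an adjusted p above 0.05. Without ovariectomized dexamethasone replicate 3 the count of 6 was 1, and without intact vehicle replicate 1 the count of 5 was 3. Leaving out intact vehicle replicate 1 gave a limma adjusted p of 0.0532 for Ifih1 and 0.0502 for Dtx3l, and leaving out ovariectomized vehicle replicate 1 gave 0.0527 for Ifih1. For Xaf1 the p was 0.0503 to 0.0543 without ovariectomized dexamethasone replicate 3, ovariectomized vehicle replicate 1 or 3, or intact vehicle replicate 3, and for Oas1g 0.0507 to 0.0585 without ovariectomized dexamethasone replicate 3, intact dexamethasone replicate 1 or ovariectomized vehicle replicate 3. The calls of Mx2, Oas2 and Isg20 were lost on leaving out any of 6, 9 and 9 libraries, with an adjusted p of up to 0.07, 0.113 and 0.114.

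The interferons themselves were scarcely measured. Of 21 interferon genes sought, 19 were in the table and none passed the filter on low values; Ifng lay between 0.59 and 0.87 in the 12 libraries and Ifnk between -0.05 and 0.33. Among 15 tested genes of the receptors and JAK-STAT signalling, 7 fell in ovariectomized and 10 in intact females with dexamethasone, and none rose by limma (at an unadjusted p under 0.05, 0 and 1 rose). Of all genes tested 19.4% fell and 21.3% rose in ovariectomized females, and 25.9% and 22.8% in intact females. Ifngr2, a chain of the interferon gamma receptor, fell by 0.55 and 0.58, the receptor kinase Tyk2 by 0.56 and 0.53, and Jak2 by 0.43 and 0.49 (limma adjusted p of 0.000951 or less). Socs3, a feedback inhibitor of cytokine receptors, fell by 0.72 in ovariectomized females and had 0.25 in intact females (limma adjusted p = 0.000388 and 0.068).

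Upstream of interferon, 14 tested genes of nucleic acid sensing did not move one way: with dexamethasone 2 fell and 4 rose in ovariectomized females, and 3 fell and 2 rose in intact females. Those counts are near the shares of all genes tested, of which 19.4% fell and 21.3% rose in ovariectomized females. In intact females 25.9% of all genes fell and 22.8% rose. Ticam1, the adaptor of the double-stranded RNA receptor TLR3, rose by 0.73 and 0.20 (limma adjusted p = 3.27e-05 and 0.0376), and Irf3, which switches on the interferon beta gene, by 0.19 and 0.39 (adjusted p = 0.044 and 0.000676). Irf5 fell by 0.40 and 0.36. Mavs, the adaptor of RIG-I and MDA5, had 0.14 in ovariectomized females (limma adjusted p = 0.0685) and fell by 0.34 in intact females (adjusted p = 0.00055).

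A further 57 tested interferon-stimulated genes that are not members also fell more often than they rose. Their list, like that of the members, was chosen with earlier results of these data known, so it is no separate support. With dexamethasone 29 fell and 5 rose in ovariectomized females, and 24 fell and 4 rose in intact females, with medians of -0.28 and -0.18; among all genes 19.4% fell and 21.3% rose in ovariectomized females, and 25.9% and 22.8% in intact females. Cxcl10, a chemokine that attracts T cells, fell by 1.03 and 0.89 (limma adjusted p = 0.000122 and 0.000174), Ube2l6, the conjugating enzyme of ISG15, by 0.81 and 0.78, and Ddx60 by 0.74 and 0.83. Slfn9 had -0.38 in ovariectomized females (limma adjusted p = 0.0788) and fell by 1.29 in intact females (adjusted p = 8.67e-05). Rises included Tor3a (0.94 and 0.55), and in intact females Ifitm1 (0.70) and Casp4 (0.50). Between ovariectomized and intact females 18 fell and 2 rose under dexamethasone, and 15 fell and 2 rose under vehicle, beside 5.08% and 7.74% of all genes under dexamethasone and 15.5% and 12.4% under vehicle.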

How the data were processed

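RNA-seq of 12 mouse liver libraries gave 1 table of log2 values per gene, which the authors normalized before they deposited it. Per the submitters' processing notes the tools were Trim Galore, TopHat2, HTSeq, DESeq and DESeq2 and the build was mm9; the sources used here do not give their order, the gene annotation, the strand setting or the exact transformation. Overlapping antisense genes therefore cannot be told apart, and depth is unknown. Of 392 symbols with several entries the one with the highest mean was kept. Genes with a mean of at least 4 (12965) were fitted with limma 3.58.1 in R 4.3.3, on all 4 groups together (8 residual degrees of freedom, variance trend), with p-values adjusted over all of them by Benjamini-Hochberg and a threshold of 0.05. The script was tested on simulated data. Shared sequence was counted as 50-base words in GENCODE M21 transcripts (GRCm38), and no coordinates were converted between builds. The fit was repeated with the filter dropped or raised to 6, with 8 added before the logarithm, on recentred or quantile-normalized values, without the variance trend, with a robust prior or with library weights, on only the libraries compared, with a replicate block, and leaving out each library in turn; removal of length and GC trends (splines of 4 degrees of freedom, 95.8% of genes matched) was added after seeing the data. Every member is named; of other lists, up to 4 genes with the largest change among those that passed, plus Nr3c1, Fkbp5, Tsc22d3, Per1, Tgtp2 and Clec4f. Tgtp2 and Clec4f were chosen after their values were seen. Members and lists were chosen with earlier results of these data known.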

Additional observations from a re-analysis of the deposited data

Results flagged for a closer look

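The dexamethasone response differed between ovariectomized and intact females for 11 members by the limma test of the difference itself (ovariectomized minus intact, log2). It was more negative in ovariectomized females for Isg20 (-0.52), Xaf1 (-0.50), Mx2 (-0.46), Oas1g (-0.45), Oas2 (-0.41) and Bst2 (-0.36). It was more positive for Dtx3l (0.47), Ifih1 (0.46), Eif2ak2 (0.39), Irgm1 (0.39) and Parp9 (0.37). The adjusted p lay between 0.00562 (Bst2) and 0.0498 (Isg20). For all genes tested the shares were 9.65% more negative and 15.3% more positive, so the members' shares are near them. Of the 11 calls 1, that of Eif2ak2, was kept under every alternative tried. Bst2 was -0.13 once length and GC trends were removed (limma adjusted p = 0.244), and Parp9 was 0.25 and Irgm1 0.26 after quantile normalization (0.0742 and 0.0901). Oas2 and Isg20 missed the threshold on leaving out most single libraries (up to 0.113 and 0.114).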

How the results depend on the processing

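Of 3133 single values recomputed for the members, 2932 kept their direction and side of the threshold, 176 lost a call, 14 gained one and 11 changed sign. Falls with dexamethasone counted 29 to 32 in both gonadal states when 1 library was left out. Falls with ovariectomy under dexamethasone (18) counted 11 with only the libraries compared, 24 with library weights and 8 to 20 with 1 library left out. Rises with ovariectomy under vehicle (2) counted 0 with length and GC trends removed and 1 to 2 with 1 library left out. For the difference between responses, the more positive members (5) counted 1 after quantile normalization, 2 with length and GC trends removed and 3 to 7 with 1 library left out; the more negative ones (6) counted 2, 3 and 1 to 6 in the same order and 11 with library weights. The cause of these changes was not tested. In intact females the dexamethasone value changed sign with length and GC trends removed for Adar (0.00016), Oas2 (0.0051) and Bst2 (-0.17), and for Oas2 it ran from -0.11 to 0.0098 with 1 library left out. In ovariectomized females it ran from -0.027 to 0.12 for Isg20, -0.024 to 0.096 for Samhd1, -0.045 to 0.006 for Parp9 and -0.0023 to 0.066 for Dtx3l with 1 library left out; it was -0.0071 for Samhd1 with library weights and -0.019 for Dtx3l after quantile normalization. Deviations of same-numbered replicates correlated at -0.231 to 0.396 over 18 pairs, with 6 over 0.1. Differently numbered libraries were not set beside them, so these values cannot decide whether the numbers pair the libraries. With the replicate block Dhx58 (-0.29, limma adjusted p = 0.061) and Zbp1 (-0.57, 0.0545) lost their calls under vehicle, Usp18 (-0.49, 0.0484) gained one in ovariectomized females, and no other call changed. Without read depth, low members such as Oas1g (mean 5.48) have no counting interval.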
